A study of Mus musculus with 6 samples.

Results

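The genes described here are smooth-muscle contractile genes and the intermediate filament gene Vim, followed across 3 mouse mammary cell lines that are labelled epithelial. Of 10 genes chosen by symbol (Acta2, Tagln, Myl9, Cnn1, Cnn2, Tpm1, Tpm2, Cald1, Myh9 and Vim), 8 were found among the 11417 genes of the deposited table. Myl9 and Cnn1 were not listed there and were not analysed here. Poly(A) RNA of the lines BC44, HC11 and C57MG was sequenced from untreated cells on plastic, giving 6 libraries, 2 for each line. The medium of BC44 and HC11 was RPMI supplemented with 10% serum plus insulin at 5 µg/ml, and HC11 also received epidermal growth factor at 10 ng/ml. C57MG grew in DMEM supplemented with 10% serum plus insulin at 10 µg/ml, so line and medium cannot be told apart. No label says that the 2 libraries of a line came from separate cultures, so p-values measure the spread between these libraries, which may be technical.

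Smooth-muscle cells contract by sliding actin filaments along myosin, and each member other than Vim belongs to a family with a place in that machinery. Acta2 encodes smooth-muscle alpha-actin, tropomyosins (Tpm1, Tpm2) lie along the actin filament, and calponins (Cnn1, Cnn2), caldesmon (Cald1) and transgelin (Tagln) bind actin and steady or restrain it. Myl9 encodes a regulatory myosin light chain and Myh9 the heavy chain of non-muscle myosin IIA, which is present in most cells. In the mammary gland the contractile program belongs to myoepithelial cells, which squeeze milk from the alveoli and also carry basal keratins. Activated fibroblasts, or myofibroblasts, make alpha-actin too, but carry vimentin, the intermediate filament protein of mesenchymal cells, in place of keratins. Many contractile genes are controlled by serum response factor, which binds a DNA element known as the CArG box.

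The labelled cell type was checked against marker genes. Of 12 epithelial marker genes 10 were listed, and all 10 had at least 1 RPKM (reads scaled to gene length and library size) in both HC11 libraries, 7 in both BC44 libraries and 0 in both C57MG libraries. Their summed level was 766 and 682 RPKM in the HC11 libraries, 378 and 331 in BC44 and 3.38 and 0.584 in C57MG, where Epcam was at 0.949 and 0 RPKM. Cldn3 was listed at 0 in all BC44 and C57MG libraries, and Krt18 in both BC44 libraries. For 13 of 16 fibroblast and myofibroblast markers that were listed, the sum was 5587 and 5764 RPKM in C57MG, 553 and 572 in BC44, against 613 and 608 in HC11. S100a4 alone gave 3684 and 3794 RPKM of the C57MG sums. Of the 13, 11 were higher in C57MG than in BC44 and 1 lower (34.1% of all genes were higher in C57MG). Against HC11, 11 were higher in C57MG and 2 lower (33.2%). Fbn1, among the 11 in both contrasts, met the filter for testing (at least 1 RPKM in at least 2 libraries) through C57MG alone. Dcn, among the 2 lower in C57MG than in HC11, met it through HC11 alone. For these genes the higher level in that line was built into their being tested. Dcn was at 0 in both C57MG libraries and at 1.68 and 3.78 RPKM in HC11. For 9 of 10 myoepithelial and basal markers the sum was 6901 and 6646 RPKM in BC44, 3931 and 3144 in HC11, against 285 and 176 in C57MG. The epithelial label of C57MG was therefore not matched by the epithelial markers.

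Promoter sequences of 4 members are shown because their levels set the lines apart most (Acta2, Tpm2, Vim) or because the window of an analysed member holds an exact CArG box (Cnn2). Each runs from 250 bases before to 50 bases after the gene's start in RefSeq (build GRCm38.p6), 5′ to 3′ on the gene's strand. In all 4 genes that start lies inside the GENCODE gene boundaries given with each member, so the 2 annotations' starts differ. Capitals mark a CArG box, a CArG box with 1 of its centre letters off, TATAAA or CATTCC, the last being the core bound by TEAD factors, searched on both strands. A window was given for 9 of the 10 genes, all but Tagln.
Acta2, chr19:34255324-34255623, minus strand: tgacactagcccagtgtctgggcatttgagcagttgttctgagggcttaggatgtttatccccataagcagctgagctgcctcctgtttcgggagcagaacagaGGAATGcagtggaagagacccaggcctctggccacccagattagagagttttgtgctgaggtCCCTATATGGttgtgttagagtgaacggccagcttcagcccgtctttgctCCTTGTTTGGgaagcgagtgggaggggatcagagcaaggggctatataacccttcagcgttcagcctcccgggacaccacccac
Tpm2, chr4:43523505-43523804, minus strand: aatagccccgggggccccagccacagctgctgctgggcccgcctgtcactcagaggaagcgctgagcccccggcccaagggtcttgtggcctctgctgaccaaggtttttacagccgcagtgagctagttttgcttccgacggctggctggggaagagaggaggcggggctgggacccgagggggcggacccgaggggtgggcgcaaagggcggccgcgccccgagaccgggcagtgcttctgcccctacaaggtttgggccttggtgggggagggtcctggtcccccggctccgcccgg
Vim, chr2:13574061-13574360, plus strand: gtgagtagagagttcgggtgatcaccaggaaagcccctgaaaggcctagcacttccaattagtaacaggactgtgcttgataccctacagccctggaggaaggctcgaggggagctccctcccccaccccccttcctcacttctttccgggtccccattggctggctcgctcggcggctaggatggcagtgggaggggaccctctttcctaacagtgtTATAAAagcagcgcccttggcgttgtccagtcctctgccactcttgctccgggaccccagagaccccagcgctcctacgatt
Cnn2, chr10:79988350-79988649, plus strand: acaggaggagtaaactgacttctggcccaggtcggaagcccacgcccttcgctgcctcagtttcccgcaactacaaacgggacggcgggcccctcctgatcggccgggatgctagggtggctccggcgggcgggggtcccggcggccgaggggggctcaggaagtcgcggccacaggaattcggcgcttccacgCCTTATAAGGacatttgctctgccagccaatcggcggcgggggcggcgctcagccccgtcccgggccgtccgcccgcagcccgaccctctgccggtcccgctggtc
Acta2 held CArG boxes with 1 letter off at positions -84 and -34 from its start (CCCTATATGG and CCTTGTTTGG) and CATTCC, read on the opposite strand, at -146. Cnn2 held an exact CArG box (CCTTATAAGG) at -56, and Vim held TATAAA at -32. The Tpm2 window held none of the motifs. Of 10 member windows, which count 2 for Cald1, 2 held an exact CArG box (Myl9 and Cnn2) and 2 one with a letter off (Myl9 and Acta2). TATAAA was in 3 (Vim, Cald1 and Myh9) and CATTCC in 3 (Cald1, Tpm1 and Acta2). Among all 32851 promoter windows 1.63% held an exact CArG box, 8.5% one with a letter off, 13.6% TATAAA and 14.7% CATTCC. These matches describe letters and show no binding.

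The members did not move as a block between the lines. C57MG had by far the most Acta2 and Vim and the least Tagln and Tpm2, while BC44 had the most Tpm1 and Tpm2 and the least Cald1 and Myh9. All 8 listed members passed the filter for testing (at least 1 RPKM in at least 2 libraries). Tagln passed through its HC11 libraries alone, so its higher level in HC11 was built into its being tested. Acta2 passed through C57MG and BC44 replicate 2. By limma with Benjamini-Hochberg adjustment over all 10759 genes tested, 8 of 8 members differed at an adjusted p under 0.05 between BC44 and C57MG, where 71.7% of all genes did. Of these 8, 3 were higher in BC44 (37.5% of all genes) and 5 in C57MG (34.1%). Between HC11 and C57MG 7 of 8 differed, against 70.5% of all genes, with 2 higher in HC11 (37.4% of all genes) and 5 in C57MG (33.2%). Between BC44 and HC11 6 of 8 differed, against 47.7%, with 3 higher in BC44 (24.7%) and 3 in HC11 (23%). The libraries of the lines compared did not overlap for 8 members between BC44 and C57MG (87.9% of all genes), 7 between HC11 and C57MG (86.2%) and 7 between BC44 and HC11 (73%). The 6 calls between BC44 and HC11 rested in part on single libraries. Fewer members were called without BC44 replicate 2, and those called then included Vim, which was not among the 6. Fewer were also called without HC11 replicate 1, where Tagln was not tested. The median difference of the members, as log2(RPKM + 1), was 0.13 for BC44 minus HC11, -1.06 for BC44 minus C57MG and -0.75 for HC11 minus C57MG. Over all genes tested it was 0.02, 0.04 and 0.03. Among bulk libraries, fewer cells with a transcript and less of it per cell cannot be told apart.

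**Figure D1:**
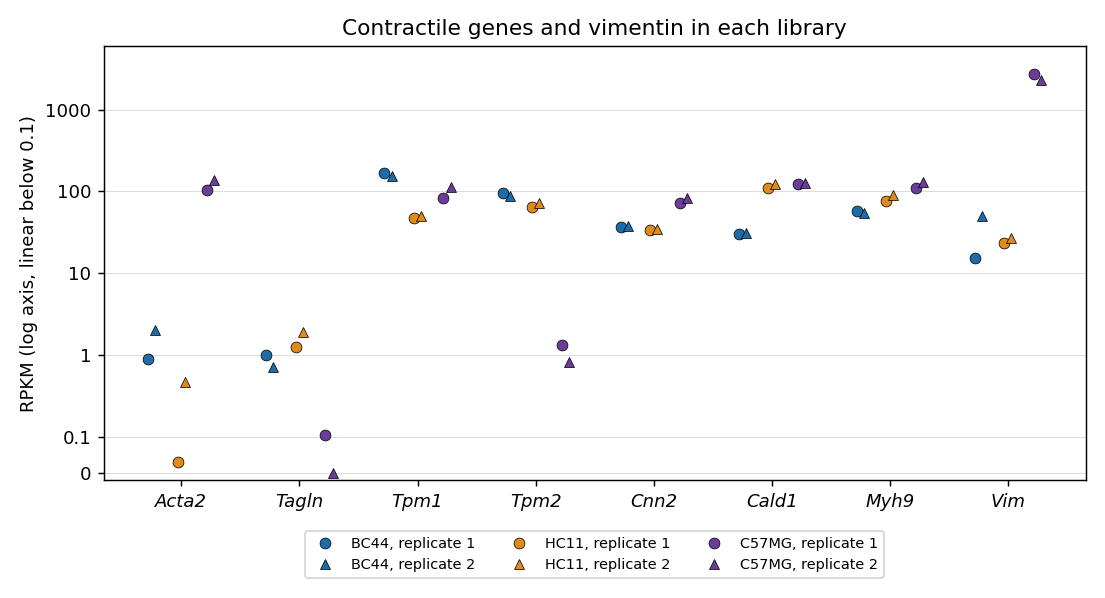
RPKM of the 8 listed members in each of the 6 libraries, on a log axis that is linear below 0.1; circles are replicate 1 and triangles replicate 2. Acta2 and Vim are highest in C57MG and Tagln and Tpm2 lowest there, and the BC44 replicates of Vim lie apart at 15.2 and 49.4 RPKM.

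Acta2 (ENSMUSG00000035783, chromosome 19, 34241090 to 34255590, minus strand, GRCm38) was a gene of C57MG. It was at 105.0 and 136.0 RPKM in the C57MG libraries, at 0.883 and 2.03 in BC44 and at 0.030 and 0.470 in HC11. The lines did not overlap, and the pair of HC11 libraries spread most in relative terms, resting on an estimated 1 and 15 reads. Mean RPKM in C57MG was 82.8 times that of BC44 and 482 times that of HC11. These ratios depended on single libraries: the first was 59.4 without BC44 replicate 1 and 136.4 without BC44 replicate 2, and the second was 256 without HC11 replicate 1. The log2 differences were -5.66 (SE 0.26, limma adjusted p = 1.097e-06) for BC44 minus C57MG and -6.61 (SE 0.26, 6.708e-07) for HC11 minus C57MG. For BC44 minus HC11 the difference was 0.96 (SE 0.26, adjusted p = 0.02), and it did not pass without BC44 replicate 2 (0.61, 0.119) or without HC11 replicate 1 (0.70, 0.0818). It was called in 13 of 17 alternatives, and 2 of the others set Acta2 in BC44 to or near 0 by their construction. Actins are nearly identical in sequence and how shared reads were counted is not stated, so low Acta2 values are uncertain. HC11 replicate 1 had 0.030 RPKM of Acta2 beside a sum of 2523 RPKM over Acta2, Actb and Actg1.

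Within the actins Acta2 remained a minor transcript even in C57MG. Its share of the summed RPKM of Acta2, Actb and Actg1 was 6.40% and 7.95% in the C57MG libraries, 0.0452% and 0.107% in BC44 and 0.0012% and 0.016% in HC11. The cytoplasmic actin Actb was at 806 and 827 RPKM in C57MG and 823 and 807 in BC44, a log2 difference of 0.00 (interval -0.25 to 0.25, adjusted p = 0.987). Actg1, the other cytoplasmic actin, was lower in C57MG than in BC44 by 0.59 (SE 0.09, 5.297e-04) and than in HC11 by 1.00 (SE 0.09, 3.290e-05).

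Tagln (ENSMUSG00000032085, chromosome 9, 45929619 to 45936058, minus strand) did not accompany Acta2. Its level was 1.26 and 1.89 RPKM in HC11, 0.992 and 0.723 in BC44, against 0.105 and 0 in C57MG, the last resting on an estimated 4 and 0 reads. All 6 libraries were thus low, and the C57MG libraries, which had the most Acta2, had the least Tagln. On the log2(RPKM + 1) scale, which compresses such low values, BC44 exceeded C57MG by 0.82 (SE 0.14, limma adjusted p = 0.0014) and HC11 exceeded C57MG by 1.28 (SE 0.14, 1.395e-04). BC44 lay below HC11 by -0.46 (SE 0.14, 0.0327), a difference that passed in 7 of 14 alternatives. Because Tagln met the filter through HC11 alone, both differences from HC11 were in part built into its being tested. Tagln overlaps Pcsk7 on the opposite strand, which was at 8.79 to 15.1 RPKM in the 6 libraries, and whether the counting used the strand is not stated. The related Tagln2 was at 225 to 319 RPKM in the 6 libraries, so Tagln made up at most 0.59% of the transgelin sum in any of them.

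The tropomyosin genes went in different directions. Tpm1 (ENSMUSG00000032366, chromosome 9, 67022590 to 67049406, minus strand) was at 169 and 156 RPKM in BC44, 83.3 and 113 in C57MG, against 47.3 and 50.7 in HC11. The order BC44, C57MG, HC11 held without overlap, with log2 differences of 0.74 (SE 0.14, limma adjusted p = 0.0019) for BC44 minus C57MG and -0.97 (SE 0.14, 4.719e-04) for HC11 minus C57MG. Between BC44 and HC11 it was 1.71 (SE 0.14, 6.255e-05). Tpm1 gives smooth-muscle and non-muscle isoforms by splicing and by alternative starts, which a value per gene does not separate.

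Tpm2 (ENSMUSG00000028464, chromosome 4, 43514711 to 43523765, minus strand) encodes beta-tropomyosin and went the opposite way from Acta2 in the contrasts with C57MG. It was at 95.1 and 87.8 RPKM in BC44 and 64.1 and 71.5 in HC11, but at 1.31 and 0.825 in C57MG, an estimated 69 and 37 reads. Mean RPKM in BC44 was 85.6 times that of C57MG, and in HC11 63.5 times. These ratios depended on the C57MG library. The first was 110.8 without C57MG replicate 1 and 69.7 without C57MG replicate 2, and the second was 82.2 and 51.7. The log2 differences were 5.49 (SE 0.13, limma adjusted p = 2.706e-07) and 5.06 (SE 0.13, 1.943e-07). BC44 exceeded HC11 by 0.43 (SE 0.13, 0.0276), which did not pass with a pseudocount of 0.1 (0.43, 0.110) or without either BC44 library or HC11 replicate 1 (adjusted p from 0.0736 to 0.143).

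Set among all 4 tropomyosin genes, Tpm2 made up 13.6% and 12.7% of their summed RPKM in the BC44 libraries and 10.9% and 11.9% in HC11. In C57MG its share was 0.294% and 0.18%. Tpm3 moved the other way, from 3.12% and 3.72% in BC44 and 5.80% and 6.47% in HC11 to 19.9% and 16.9% in C57MG. The log2 difference of Tpm3 was -1.77 (SE 0.11, limma adjusted p = 6.355e-06) for BC44 minus C57MG and -1.16 (SE 0.11, 6.843e-05) for HC11 minus C57MG. Tpm4, the most abundant tropomyosin in every library, held 58.3% to 75.3% of the sum.

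**Figure D2:**
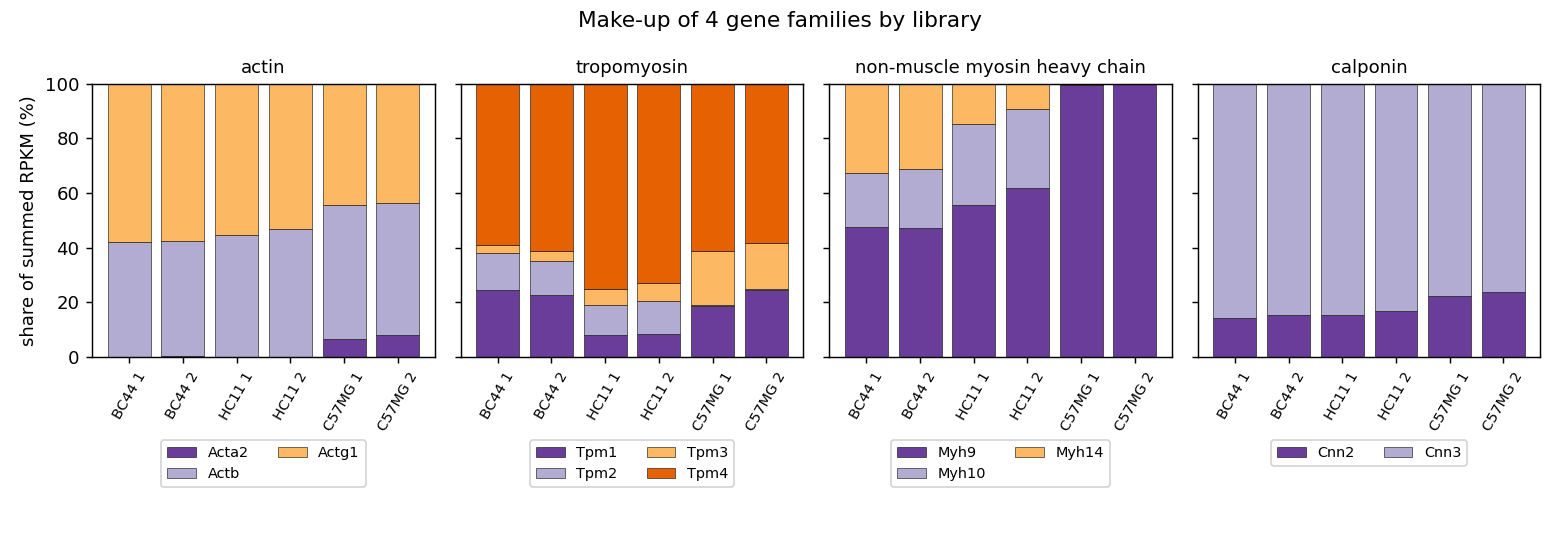
Share of each gene in the summed RPKM of its family, as stacked bars from 0 to 100% for each of the 6 libraries. Acta2 is visible only in C57MG (6.40% and 7.95%), Tpm2 is visible only in BC44 and HC11, and Myh9 takes up nearly the whole myosin bar in C57MG (99.4% and 99.9%).

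Among the actin-binding regulators, Cnn2 was higher in C57MG and Cald1 was lower in BC44. Cnn2 (ENSMUSG00000004665, chromosome 10, 79988584 to 79996062, plus strand), a calponin of many non-muscle cells, was at 72.0 and 83.2 RPKM in C57MG, 36.4 and 37.5 in BC44, against 33.7 and 34.2 in HC11. C57MG stood apart, with log2 differences of -1.05 (SE 0.09, limma adjusted p = 2.534e-05) for BC44 and -1.16 (SE 0.09, 1.682e-05) for HC11. BC44 minus HC11 was 0.12 (interval -0.09 to 0.33, adjusted p = 0.310), although their libraries did not overlap, as was so for 73% of all genes. Cnn3, the more abundant calponin, was at 169 to 270 RPKM and left Cnn2 14.3% to 16.8% of the calponin sum in BC44 and HC11 and 22.3% and 23.6% in C57MG. Smooth-muscle calponin, Cnn1, was not listed.

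Cald1 (ENSMUSG00000029761, chromosome 6, 34598500 to 34775473, plus strand) was at 29.8 and 30.8 RPKM in BC44, 111 and 124 in HC11, against 122 and 125 in C57MG. Here BC44 stood apart from both other lines, by -1.92 (SE 0.08, limma adjusted p = 3.291e-06) against HC11 and -1.99 (SE 0.08, 5.674e-07) against C57MG. HC11 and C57MG overlapped, with a difference of -0.07 (interval -0.26 to 0.12, 0.462). Like Tpm1, Cald1 has a heavy smooth-muscle form and a light non-muscle form that a value per gene does not separate.

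Myh9 (ENSMUSG00000022443, chromosome 15, 77760587 to 77842175, minus strand) rose from BC44 through HC11 to C57MG. Its level was 58.4 and 54.9 RPKM in BC44, 76.6 and 90.0 in HC11, against 109 and 131 in C57MG. The lines did not overlap, and each step passed, with -0.54 (SE 0.12, limma adjusted p = 0.0068) for BC44 minus HC11 and -0.52 (SE 0.12, 0.0046) for HC11 minus C57MG. The whole span, BC44 minus C57MG, was -1.07 (SE 0.12, 9.764e-05). Without BC44 replicate 2 the first of these did not pass (-0.50, 0.0508). The 440 other tested genes of chromosome 15 had a median difference of -0.60 for BC44 minus C57MG, -0.59 for HC11 minus C57MG and -0.01 for BC44 minus HC11. The part of that shift in the Myh9 differences was not tested.

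In the contrasts with C57MG the other non-muscle myosin heavy chains went the opposite way from Myh9. For BC44 minus HC11, Myh10 went the same way as Myh9 (-0.71, SE 0.10, limma adjusted p = 0.0011) and Myh14 the opposite way (1.15, SE 0.19, 0.0022). Myh10, of myosin IIB, was at 24.7 and 24.8 RPKM in BC44 and 40.6 and 42.0 in HC11, but at 0.180 and 0.025 in C57MG. Myh14, of myosin IIC, was at 40.1 and 36.4 RPKM in BC44, 20.3 and 13.8 in HC11, against 0.434 and 0.134 in C57MG. Both were lower in C57MG than in either other line, by 3.80 to 5.27 on the log2(RPKM + 1) scale, with limma adjusted p-values from 1.410e-07 to 1.997e-06. Myh9 therefore made up 99.4% and 99.9% of the 3 genes' summed RPKM in C57MG, 55.7% and 61.7% in HC11 and 47.4% and 47.3% in BC44. In C57MG replicate 1 both genes exceeded replicate 2, as did Epcam (0.949 against 0 RPKM) and Krt5 (16.04 against 0.148), and the part of this in the low values was not tested.

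**Figure D3:**
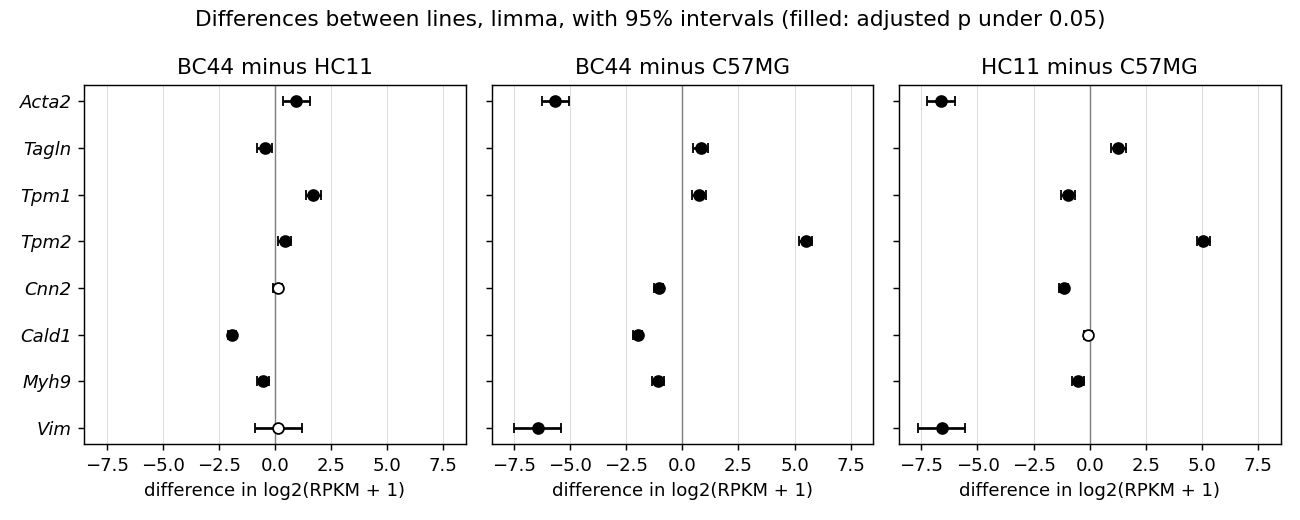
Differences in log2(RPKM + 1) of the 8 listed members for the 3 pairs of lines, with limma's 95% intervals; filled points have an adjusted p under 0.05. Acta2 and Vim lie far to the C57MG side and Tpm2 far to the other, while Cnn2 and Vim (BC44 minus HC11) and Cald1 (HC11 minus C57MG) are the open points.

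Vim (ENSMUSG00000026728, chromosome 2, 13573927 to 13582826, plus strand) was at 2708 and 2282 RPKM in C57MG, where it ranked 5 and 6 of 11417 genes. In HC11 it was at 23.1 and 26.7 RPKM, and in BC44 at 15.2 and 49.4. The HC11 values lay between the BC44 replicates, so these lines overlapped, and C57MG lay far above both. The log2 difference was -6.44 (SE 0.44, limma adjusted p = 8.352e-06) for BC44 minus C57MG and -6.59 (SE 0.44, 8.563e-06) for HC11 minus C57MG. Mean RPKM in C57MG was 77.2 times that of BC44 and 100.3 times that of HC11. The first ratio was 50.5 without BC44 replicate 1 and 164 without BC44 replicate 2. BC44 minus HC11 was 0.15 (interval -0.89 to 1.19, 0.809), and its sign depended on the BC44 library. Without BC44 replicate 2 it was -0.67 (adjusted p = 0.0171), and without BC44 replicate 1 it was 0.97 (0.0054).

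The low Vim and Acta2 values of BC44 were set beside those of other genes high in C57MG. As a share of the C57MG mean, Vim was at 0.609% and 1.98% in BC44 replicates 1 and 2, and Acta2 at 0.733% and 1.68%. Over genes private to C57MG, defined after the values were seen, the median share was computed without the members. Such genes had at least 20 RPKM in C57MG, with an HC11 mean no higher than 2% of that level and the other replicate of BC44 no higher than 5%. Their median share was 0.666% (71 genes, quartiles 0.526% and 1.66%) for BC44 replicate 1 and 2.03% (70 genes, quartiles 1.64% and 2.60%) for replicate 2. Vim and Acta2 were within these quartiles in both libraries. Fibroblast markers spread more widely. However, the caps of 2% and 5% favour low and similar shares among the private genes, and no cap was set on the markers. The wider spread therefore follows in part from the definition, and nothing is concluded from it. Col1a1, a fibrillar collagen, was at 0.61% and 2.03% and Pdgfrb, a receptor of fibroblasts and pericytes, at 0.629% and 1.90%, but Lox was at 1.86% and 3.38%, Col1a2 at 1.71% and 3.08%, and Col3a1 at 6.62% and 10.6%. Col5a1 was at 6.26% and 5.65%, and Fn1 at 35.2% and 35.7%. The source of these low values was not tested.

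In HC11 the same comparison was made. Genes private to C57MG, defined for HC11 with BC44 as the other line, had median shares of 0.251% (quartiles 0.0646% and 0.694%) and 0.34% (0.0673% and 1.52%) in HC11 replicates 1 and 2, while Vim was at 0.926% and 1.07%. Acta2 was at 0.0249% and 0.39%. S100a4, a calcium-binding protein gene of fibroblasts that is also made elsewhere, was at 1.25% and 0.948% in HC11. Vim was above the upper quartile in HC11 replicate 1 and within the quartiles in replicate 2. Acta2 was below the lower quartile in HC11 replicate 1, on an estimated 1 read, and within the quartiles in replicate 2. Whether BC44 and HC11 differ in these shares was not tested.

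**Figure D4:**
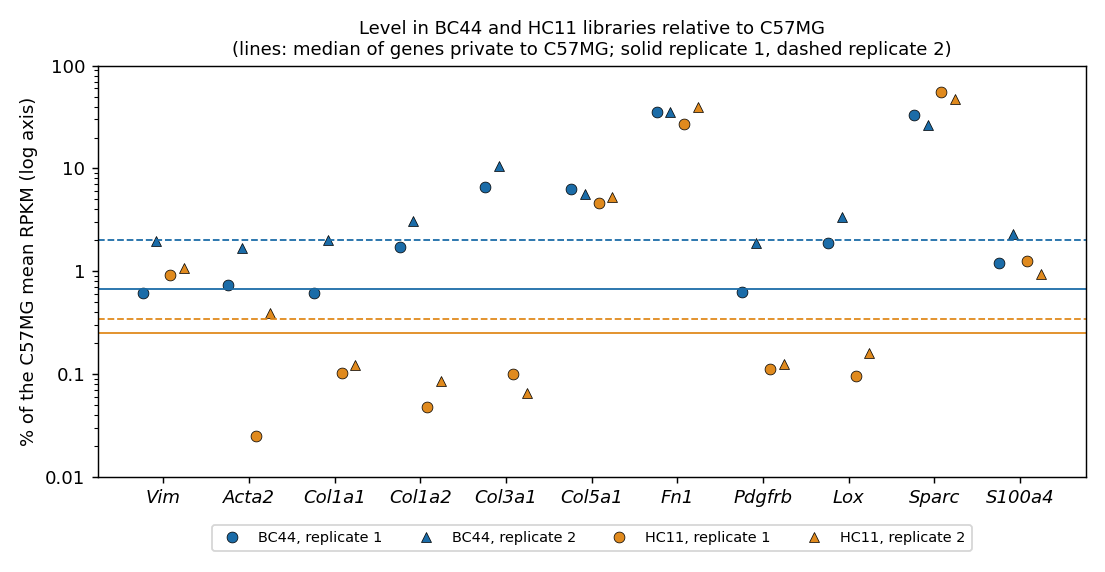
Level of Vim, Acta2 and the 9 fibroblast and myofibroblast markers with at least 20 RPKM in C57MG, as a percentage of the C57MG mean (log axis), in the BC44 and HC11 libraries; horizontal lines are the medians of genes private to C57MG in each library. In BC44, Vim, Acta2, Col1a1 and Pdgfrb lie close to the lines (0.666% and 2.03%), Col1a2 and Lox lie above them (1.71% to 3.38%), Col3a1 and Col5a1 further above (5.65% to 10.6%), and Fn1 and Sparc are at 26.3% or more in every library.

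Other contractile and anchoring genes were taken from a list of 20, of which 14 were listed and 13 tested. Myh11, the smooth-muscle myosin heavy chain, Actg2, the enteric actin, and Synpo2, Ppp1r14a, Tgfb1i1 and Fhl1 were not listed. Between BC44 and C57MG 6 were higher in BC44, 6 in C57MG and 1 did not pass, where 71.7% of all genes passed. Between HC11 and C57MG 7 were higher in HC11 and 6 in C57MG (70.5% of all genes passed), and between BC44 and HC11 4 were higher in BC44, 2 in HC11 and 7 did not pass (47.7%). The list medians were 0.17, 0.34 and 0.05 on the log2 scale, against 0.04, 0.03 and 0.02 over all genes. C57MG thus had more of some of these genes and less of others.

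Mylk, the myosin light chain kinase that starts smooth-muscle contraction, had the largest difference of the list in both contrasts with C57MG. It was at 19.0 and 18.4 RPKM in C57MG, 0.108 and 0.384 in BC44, against 0.027 and 0.048 in HC11, so its log2 differences were -3.99 (SE 0.13, limma adjusted p = 2.902e-07) and -4.25 (SE 0.13, 2.611e-07). Mylk, Lmod1 and Ppp1r12b reached the filter through the C57MG libraries alone, so a difference from C57MG was built into their being tested. Each is among the genes counted above as higher in C57MG. Like Vim, Mylk in BC44 was at 0.577% and 2.05% of its C57MG mean. Lmod1, a smooth-muscle actin nucleator, was at 2.59 and 2.48 RPKM in C57MG and at most 0.087 in the other 4 libraries, which held an estimated 0 to 6 reads each. Des, the muscle intermediate filament gene, stayed under 1 RPKM in all 6 libraries and was not tested.

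Csrp2, which encodes a LIM protein of smooth muscle, was higher in BC44. It was at 86.7 and 78.4 RPKM in BC44, 33.0 and 35.8 in HC11, against 12 and 12.3 in C57MG, and BC44 minus HC11 was 1.24 (SE 0.09, limma adjusted p = 3.188e-05). Csrp1, its relative, was instead highest in C57MG, with 185 and 237 RPKM in C57MG, 79.6 and 71.7 in BC44, against 53.6 and 53.0 in HC11. Flna, which crosslinks actin, rose from BC44 (101 and 107 RPKM) through HC11 (174 and 196) to C57MG (238 and 258), and all 3 of its differences passed. Actn1, the actin-bundling alpha-actinin, was instead highest in HC11 (145 and 183 RPKM) and at 92.4 to 107 RPKM in the other 4 libraries.

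**Figure D5:**
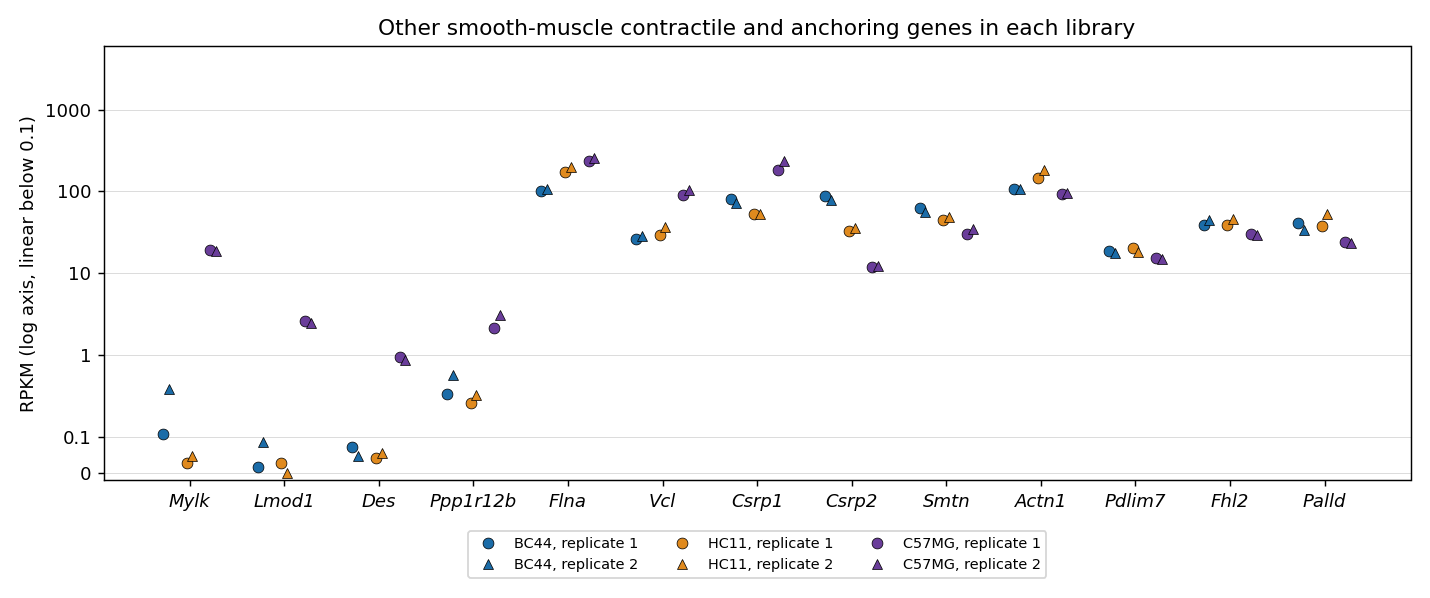
RPKM of 13 of the 14 listed genes among the other contractile and anchoring genes, by library, on a log axis that is linear below 0.1; circles are replicate 1 and triangles replicate 2. Mylk, Lmod1, Des and Ppp1r12b are highest in C57MG, whereas Csrp2 is lowest there.

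Genes that control the contractile program were also counted. Of 15 symbols for serum response factor, its MRTF and myocardin partners and genes that control actin assembly and myosin activity 10 were listed, and Myocd and both MRTF genes, under their newer and older symbols, were not. Between BC44 and C57MG 2 of the 10 were higher in BC44, 4 in C57MG and 4 did not pass, beside 71.7% of all genes that passed. The counts for HC11 against C57MG were 2, 4 and 4 (70.5% of all genes), and for BC44 against HC11 3, 2 and 5 (47.7%). Srf itself was at 19.4 and 24.0 RPKM in BC44, 20.6 and 21.4 in C57MG, against 16.6 and 16.7 in HC11. BC44 and C57MG overlapped for Srf (0.04, interval -0.22 to 0.30, limma adjusted p = 0.765), while BC44 minus HC11 was 0.35 (SE 0.11, 0.0324) and HC11 minus C57MG was -0.31 (SE 0.11, 0.0344). Limk2, a kinase that inactivates the actin-severing cofilins, had the largest difference in each contrast, with 65.0 and 62.8 RPKM in BC44, 28.3 and 23.9 in HC11, against 8.33 and 7.93 in C57MG. Cfl1 (838 to 1031 RPKM), Rhoa (172 to 240) and Rock2 (25.0 to 54.6) were the most abundant of the list, and of these Rock2 was higher in C57MG than in both other lines (differences of -0.89 and -0.78, SE 0.11 each, 1.675e-04 and 4.006e-04).

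The 12 non-muscle counterparts of the contractile genes were all listed and tested. Of these 6 were higher in BC44 than in C57MG, 4 lower and 2 did not pass (71.7% of all genes passed), whereas between HC11 and C57MG 7 were higher in HC11 and 5 in C57MG (70.5%). Between BC44 and HC11 the counts were 4 higher in BC44, 5 in HC11 and 3 that did not pass (47.7%). Myl6, the essential light chain, was the third most abundant after the cytoplasmic actins, at 415 to 630 RPKM. Myl12b, a regulatory light chain, followed the order of Myh9, with 52.2 and 48.3 RPKM in BC44, 108 and 94.2 in HC11, against 145 and 142 in C57MG.

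Vimentin's partners and other intermediate filament genes went in both directions. Of 9 genes 7 were listed, of which 3 were higher in C57MG than in BC44, 2 lower and 2 did not pass, beside 71.7% of all genes that passed. For HC11 against C57MG 4 were higher in C57MG, 2 in HC11 and 1 did not pass (70.5% of all genes passed), and for BC44 against HC11 2 were higher in BC44, 3 in HC11 and 2 did not pass (47.7%). Prph, another gene of the list, met the filter through C57MG alone, Synm through BC44 alone, and Nes and Krt7 through HC11 alone. For these genes the higher level in that line was built into their being tested. Plec, the plectin that links vimentin to other filaments, was at 72.5 and 75.2 RPKM in C57MG, 19.4 and 17.7 in BC44, against 25.4 and 34.8 in HC11. Nuclear lamin Lmna was at 295 and 272 RPKM in C57MG and 121 to 141 elsewhere, while Lmnb1 was at 61.4 to 88.2 in all libraries. Synm, a filament protein that assembles with vimentin or desmin, was instead highest in BC44 (2.31 and 2.86 RPKM), and Nes, nestin, in HC11 (2.66 and 3.00 RPKM). The keratin Krt7 was at 49.1 and 68.9 RPKM in HC11, listed at 0 in both C57MG libraries and at 0.078 and 0.016 in BC44.

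Myoepithelial and basal markers were set beside the contractile members. Of 9 listed markers 7 were higher in BC44 than in C57MG, 1 lower and 1 did not pass (71.7% of all genes passed), and 5 were higher in BC44 than in HC11, 1 lower and 3 did not pass (47.7%). Krt5 was at 2012 and 1828 RPKM in BC44 and 1000.1 and 534 in HC11, and Krt14 at 2716 and 2736 in BC44, 1409 and 1073 in HC11, against 118 and 64.8 in C57MG. Trp63, the basal lineage factor, was at 24.4 and 25.6 RPKM in BC44, 20.5 and 17.8 in HC11, against 5.86 and 6.98 in C57MG. Krt17 and the cadherin gene Cdh3, both basal markers, were highest in BC44 too, at 1923 and 1820 RPKM for Krt17 and 114 and 108 for Cdh3, whose HC11 level was 23.3 and 22.6. Krt5 and Krt17 did not pass between BC44 and HC11 (limma adjusted p = 0.315 and 0.1497). Other markers of the list had other orders: the integrin gene Itga6 was at 113 and 86.8 RPKM in C57MG and 13.8 to 16.5 elsewhere, Itgb4 was highest in HC11 (193 and 185), and Lgr6 was at 3.77 and 4.11 in C57MG and 2.10 and 3.96 in BC44. Tpm2, with 95.1 and 87.8 RPKM in BC44 and 1.31 and 0.825 in C57MG, had its levels in the same order of lines as Krt14, whereas Acta2 and Tagln did not. The luminal keratin Krt8 was at 144 and 148 RPKM in HC11 and at 0.503 or less in the other 4 libraries. The line with the most basal keratin, BC44, had at most 2.03 RPKM of Acta2 and 0.992 of Tagln, and Oxtr, the oxytocin receptor of myoepithelial cells, was not listed. C57MG, with 105.0 and 136.0 RPKM of Acta2, had 2708 and 2282 of Vim, 171 and 163 of Col1a1 and 28.01 and 23.8 of Col3a1. Lox, a collagen crosslinking enzyme, was at 303 and 332 RPKM there, beside 5.90 and 10.7 for BC44 and 0.302 and 0.508 for HC11. Postn, a matrix gene of myofibroblasts, was in C57MG at 3.81 and 1.03 RPKM, below the 46.4 to 83.0 of the other 4 libraries.

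The genes most like Acta2, Vim and Tagln were found by the root mean square difference of log2(RPKM + 1) over the 6 libraries after each gene's mean was removed. For Acta2 the nearest were Nsg1 (0.21), Emilin1 (0.26), Olfml2b (0.27), Chst1 (0.27) and Pdgfrb (0.28). For Vim they were Csf1 (0.28), S100a4 (0.37), Ccl2 (0.38), Ptx3 (0.39) and Cxcl12 (0.43). Tagln had Atp6v1f (0.05), Tmem120b (0.08), Paqr8 (0.09), Elovl7 (0.10) and Noct (0.11) nearest, with smaller values because its range on this scale is small. With 3 lines, likeness over 6 libraries mostly restates which line is high.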

How the data were processed

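The deposited values are RPKM, computed by the authors, with 1 value per gene and library for 11417 genes. Reads were aligned with STAR and build mm9 is named, per the submitters' processing notes; the counter, the gene lengths and how the listed genes were selected are not given in the sources used here. The model was limma 3.58.1 (R 4.3.3, eBayes with trend), fitted to log2(RPKM + 1) over all 6 libraries and the 10759 genes with at least 1 RPKM in at least 2 libraries. Two-sided p-values received Benjamini-Hochberg adjustment in each of 3 contrasts, with a threshold of 0.05. Intervals are limma's 95% intervals, and fold changes on this scale understate those of low genes. The model was tested on simulated data.

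Depth was estimated from the steps of low values multiplied by exon length (GENCODE M21, whose identifiers matched all 11417 genes). It was 14310000 to 18450000 reads per library, with 72.6% to 82.4% of the low values within 0.15 of a whole read, against 30% by chance. Read numbers are estimates, cover counting error only, and use a floor of 3 reads. Gene coordinates are from GENCODE M21 (GRCm38), promoter sequences from RefSeq.

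The members and gene lists were chosen with earlier results of these data known. Named were all members, of each list the 3 most abundant genes and the largest passing difference without overlap per contrast, defining markers, and the 5 genes nearest to Acta2, Tagln and Vim. Cnn3, Tagln2, Tpm3, Tpm4, Myl12b, Synm, Nes, Prph, Lmod1, Ppp1r12b, Postn, Dcn, Fbn1, Cldn3, Srf, Tead1, Col1a2, Col5a1, Itga6, Itgb4, Lgr6, Rgs5 and Pcsk7 were chosen after their values were seen. For 1 listed gene, which stays in its list's counts and median, values are not reported here. In all 17 alternatives were run, 6 of them leaving out a library.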

Additional observations from a re-analysis of the deposited data

How the results depend on the processing

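Of 261 member results recomputed with all 6 libraries kept, 253 kept their direction and their side of the threshold, 4 no longer passed and 4 changed sign. Changes of the filter, the variance model, the replicate block or to the 4 libraries compared leave the difference itself the same. There only the call could change, so these counts overstate how far direction was tried. Subtracting the private share from BC44 likewise leaves HC11 minus C57MG the same. The 4 that changed sign were in BC44 minus HC11, after subtraction of the C57MG signal. With the share taken from fibroblast markers, Acta2 became -0.18 (limma adjusted p = 0.421) and Vim -4.49 (9.727e-07). With the share taken from genes private to C57MG, they became -0.24 (0.348) and -4.69 (6.486e-07). The marker median was 1.86% and 3.38% of the C57MG level in BC44 replicates 1 and 2, above the 0.609% and 1.98% of Vim and the 0.733% and 1.68% of Acta2, so that subtraction leaves 0 for both in BC44 by construction. The private-gene shares, 0.666% and 2.03%, were chosen after the values were seen, and subtracting them leaves 0 for Vim in both libraries and for Acta2 in replicate 2. These 4 values are therefore fixed by the step and measure nothing. The 4 that no longer passed were Tagln in BC44 minus HC11 with a pseudocount of 0.1 (adjusted p = 0.146), after quantile normalization (0.0556) and with only the 4 libraries compared (0.0526), and Tpm2 in the same contrast with a pseudocount of 0.1 (0.110). The cause was not tested.

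Leaving out 1 library left its line with 1 sample, assumed to vary like the other lines. In the contrast without that line the difference could not change, only its spread. Of 138 such results 125 kept direction and call, 10 no longer passed, 1 newly passed and 2 changed sign. The members called between BC44 and HC11 ranged from 3 to 5, against 6. In that contrast Vim ranged from -0.67 to 0.97, and Cald1 in HC11 minus C57MG from -0.15 (without HC11 replicate 2) to 0.0088 (without HC11 replicate 1). A mean of at least 5 RPKM, or leaving out either HC11 library, left Tagln untested.

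Adding the number as a replicate block changed no member's call: 6 passed between BC44 and HC11, 8 between BC44 and C57MG and 7 for HC11 with C57MG. In the same order it called 5350, 7875 and 7721 genes against 5129, 7713 and 7590. Deviations of libraries with the same number correlated at 0.354, -0.039 and 0.038 across genes. The block pairs samples by number only, and no label says what a shared number means. The source of the 0.354 between BC44 and HC11 was not tested.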

Other observations

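Markers of other cell types that can carry contractile genes were compared by their sums. None of 6 striated muscle markers was listed. Of 6 pericyte and vascular smooth muscle markers 4 were listed, summing to 47.4 and 27.7 RPKM in BC44, to 24.8 and 22.8 in HC11, and to 6.87 and 6.73 in C57MG. Mcam, an adhesion molecule also made by epithelial cells, carried most of the sum in BC44 and HC11. It was at 45.2 and 26.3 RPKM in BC44 and at 4.11 and 3.47 in C57MG, and was lower in C57MG than in both other lines (limma adjusted p = 1.468e-05 and 6.177e-05). Notch3 went the other way, with 2.16 and 2.61 RPKM in C57MG and 0.711 to 1.55 elsewhere (adjusted p = 0.0308 and 0.0263). Rgs5 was at 0.584 and 0.642 RPKM in C57MG and at most 0.013 elsewhere, and Cspg4 at 0.008 to 0.612, highest outside C57MG. Of 5 endothelial and blood cell markers 3 were listed, with sums of 3.09 to 4.30 RPKM in the 6 libraries. Cd68 was at 1.36 to 3.30 RPKM, Cdh5 at 0.179 to 1.44 and Pecam1 at 0.073 to 1.35.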
